A study of Mus musculus with 24 samples.

Results

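The genes described here are 10 genes of mitochondrial fatty acid oxidation, taken by symbol from a table of 21959 genes: Cpt1a, Cpt1b, Cpt2, Acadm, Acadl, Acadvl, Hadh, Hadha, Etfa and Etfb. All 10 were found, and all 10 were among the 14216 genes that passed the filter on low counts. They were measured by RNA-seq of polyadenylated RNA from the mouse aorta, from its ascending part down to the abdominal bifurcation, in 24 male mice. The 4 groups were wild type on plain drinking water (WT, 6 libraries), wild type on β-aminopropionitrile (WT-BAPN, 7), ATAD3A knock-in on plain water (KI, 5) and ATAD3A knock-in on BAPN (KI-BAPN, 6). BAPN blocks the cross-linking of collagen and elastin and is given to induce aortic aneurysm and dissection. It was given at 0.5% (w/v) for 28 days from an age of 3 weeks, and the other animals drank water over the same time. ATAD3A is an ATPase of the mitochondrial inner membrane. The sources used here do not state the strain, the number of knock-in lines, or the promoter and cell type that drive the knock-in. Whether the fat around the vessel was removed is not stated either.

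In fatty acid oxidation, long-chain fatty acids bound to coenzyme A enter the mitochondrion through the carnitine shuttle and are then shortened step by step to acetyl-CoA. Electrons taken in this process reach the respiratory chain through the electron transfer flavoprotein. The pathway is very active in heart, liver and brown fat, and the mouse thoracic aorta is surrounded by fat with brown features, so the levels are given beside Adipoq, the adipocyte hormone adiponectin.

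Libraries held 13127645 to 26490651 counts. Levels are given as CPM, the usual read count relative to library size, scaled by TMM, a normalization for library composition. Smooth muscle markers were present in every library, with a summed level of 10 genes from 11075 to 58486 CPM. Atad3a, the check of the knock-in, was at 617 to 1629 CPM in KI and 231 to 1038 CPM in KI-BAPN, and at 24.9 to 61.4 CPM in the 13 wild type libraries. WT replicate 5 stood apart: its 11 skeletal muscle markers summed to 6517 CPM, against 31.5 CPM at most in any other library, and its 8 airway markers to 20608 CPM, against 228 CPM at most. It was also highest in summed cardiac markers (1690 CPM, against 368 at most elsewhere) and mesothelial markers (452 CPM, against 170 at most). The summed level of 18 adipocyte markers, Adipoq among them, ran from 1654 to 6381 CPM in WT, 757 to 7613 CPM in WT-BAPN, 1513 to 22657 CPM in KI and 1745 to 23273 CPM in KI-BAPN, with no marker at 0 in a whole group. In bulk tissue, fewer cells of a type and less RNA per cell cannot be told apart.

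In GENCODE M21 (GRCm38), where all 10 are protein-coding genes, Cpt1a lies at chr19:3322334-3385733, Cpt1b at chr15:89416405-89425863, Cpt2 at chr4:107903981-107923610, Acadm at chr3:153922357-153944632 and Acadl at chr1:66830839-66863277. Acadvl lies at chr11:70010183-70015411, Hadh at chr3:131233419-131272101, Hadha at chr5:30118304-30155162, Etfa at chr9:55454508-55512243 and Etfb at chr7:43444083-43457800. The promoters of 4 members are shown as examples of both kinds of gene described further on: Acadm and Hadh were called with Adipoq across libraries, while Acadvl and Cpt1a were not. Each run is the 250 bases before the start of the gene in RefSeq, build GRCm38.p6, 5′ to 3′ on the gene's strand. For Cpt1a the annotations differ: the RefSeq start, and the run before it, lie inside the GENCODE span given above. They lie at chr3:153944644-153944893 (Acadm, minus strand), chr3:131272102-131272351 (Hadh, minus strand), chr11:70015429-70015678 (Acadvl, minus strand) and chr19:3323051-3323300 (Cpt1a, plus strand). Capitals mark AGGTCA, the core site of nuclear receptors, GGGCGG, the GC box, and CCAAT, on either strand.
Acadm: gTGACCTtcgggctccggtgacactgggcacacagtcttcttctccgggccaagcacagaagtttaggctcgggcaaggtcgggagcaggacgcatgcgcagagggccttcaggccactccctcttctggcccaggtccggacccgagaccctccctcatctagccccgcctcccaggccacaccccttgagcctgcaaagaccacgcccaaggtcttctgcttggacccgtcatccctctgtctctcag
Hadh: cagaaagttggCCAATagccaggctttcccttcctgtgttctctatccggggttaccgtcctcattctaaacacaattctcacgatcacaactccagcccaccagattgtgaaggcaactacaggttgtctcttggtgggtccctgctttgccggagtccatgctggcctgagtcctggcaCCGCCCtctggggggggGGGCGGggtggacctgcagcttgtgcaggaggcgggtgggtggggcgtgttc
Acadvl: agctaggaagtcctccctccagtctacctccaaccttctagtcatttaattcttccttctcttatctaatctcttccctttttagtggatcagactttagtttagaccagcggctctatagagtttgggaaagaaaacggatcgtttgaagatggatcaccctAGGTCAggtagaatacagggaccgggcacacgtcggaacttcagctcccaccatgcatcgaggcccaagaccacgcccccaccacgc
Cpt1a: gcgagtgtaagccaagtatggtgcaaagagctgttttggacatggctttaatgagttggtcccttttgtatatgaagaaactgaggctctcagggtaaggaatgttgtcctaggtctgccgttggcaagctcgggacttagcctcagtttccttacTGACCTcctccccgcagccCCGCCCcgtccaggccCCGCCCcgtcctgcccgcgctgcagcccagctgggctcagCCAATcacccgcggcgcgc
The table held 9 of the 10 members (not Cpt1b), and 6 motifs were searched on both strands. AGGTCA was found in 3 of the 9 promoters (Acadm, Acadvl and Cpt1a) and in 14.02% of 32851 RefSeq promoters of the same length. GGGCGG was found in 5 of 9 (32.7% of all) and CCAAT in 4 of 9 (33.8% of all). The response element of PPAR, AGGTCA repeated after 1 base of any kind, was in 0 of 9 (0.0335% of all). TCAAGGTCA, the extended site of estrogen-related receptors, which also contains AGGTCA, was in 0 of 9 (0.387% of all), and the E box CACGTG in 0 of 9 (6.02% of all). None of the 6 motifs was in the promoters of all genes called with Adipoq further on. A match is a match of letters only.

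The carnitine shuttle genes held the most evenly and the least evenly measured members. Cpt1a encodes the liver form of carnitine palmitoyltransferase 1, which links fatty acids to carnitine at the outer membrane and is the main control point of the pathway. Its level was lowest 83.4, median 96.4 and highest 107 CPM in WT, and 86.4, 91.8 and 128 CPM in WT-BAPN. In KI its 5 libraries were at 83.0, 90.8, 84.5, 83.6 and 92.5 CPM, and in KI-BAPN the lowest, median and highest were 58.7, 74.4 and 127 CPM. The groups overlapped, and the whole range over 24 libraries was 2.19-fold.

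Cpt1b, the muscle form of the same enzyme, was almost unread in this tissue, at 0 to 71 reads per library. It was lowest 0, median 0.185 and highest 0.629 CPM in WT, 0.141, 0.287 and 1.0 CPM in WT-BAPN, and 0.183, 0.258 and 1.13 CPM in KI-BAPN. In KI 4 libraries were at 0.157, 0.195, 0.188 and 0.139 CPM, and KI replicate 5 was at 3.10 CPM, which was 17.9 times the median of the other KI libraries. The KI mean of 0.755 ± 1.31 CPM (SD, n = 5) was thus carried by 1 animal. The gene lies wholly inside the read-through gene Gm44502 on the same strand (GENCODE M21). Gm44502 was counted separately, with a median of 0 CPM. The read counter is not stated, so how reads lying in both genes were assigned or dropped is not known. The low level of Cpt1b is thus uncertain.

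Cpt2, which frees the fatty acid from carnitine on the inner side, was lowest 23.8, median 28.5 and highest 39.4 CPM in WT, and 20.2, 29.6 and 47.9 CPM in WT-BAPN. The KI libraries were at 30.1, 34.1, 28.0, 30.8 and 80.3 CPM. In KI-BAPN the lowest, median and highest were 28.3, 38.7 and 99.5 CPM. The libraries at the top were KI-BAPN replicate 3 (99.5 CPM), KI replicate 5 (80.3 CPM) and KI-BAPN replicate 2 (68.4 CPM), and the other 21 reached at most 47.9 CPM.

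The acyl-CoA dehydrogenases carry out the first step of each cycle on chains of different length. Acadm, for medium chains, was lowest 123, median 141 and highest 160 CPM in WT, and 107, 125 and 214 CPM in WT-BAPN. The KI libraries were at 163, 149, 128, 135 and 365 CPM, and the KI-BAPN libraries ran from 127 CPM through a median of 159 to 280 CPM. Acadl, for long chains, was lowest 128, median 141 and highest 189 CPM in WT, and 92.6, 123 and 203 CPM in WT-BAPN. Its KI libraries were at 148, 193, 84.6, 96.3 and 321 CPM, and KI-BAPN ran from 93.6 CPM through 155 to 293 CPM. For both genes the same 3 libraries as for Cpt2 were the highest of 24, followed by WT-BAPN replicate 6.

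Acadvl, for very long chains, did not share this order. It was lowest 28.7, median 42.9 and highest 48.9 CPM in WT, and 21.3, 26.4 and 41.8 CPM in WT-BAPN. The KI libraries were at 19.7, 17.6, 43.5, 56.6 and 116 CPM, and KI-BAPN ran from 15.8 CPM through 31.1 to 60.4 CPM. KI replicate 5 was again the highest library and KI-BAPN replicate 2 the second, but KI-BAPN replicate 3, the highest in Adipoq, was at 33.0 CPM, near the median of its group. Acadvl overlaps Dvl2 on the opposite strand by 2119 bases, and the sources used here do not state whether the counting used strand.

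Hadh and Hadha encode the hydroxyacyl steps, Hadh the soluble short-chain dehydrogenase and Hadha the alpha subunit of the membrane-bound trifunctional protein. Hadh was lowest 51.1, median 61.3 and highest 107 CPM in WT, and 54.0, 70.9 and 111 CPM in WT-BAPN. The KI libraries were at 88.7, 91.1, 60.9, 66.6 and 262 CPM. In KI-BAPN it ran from 78.3 CPM through 104 to 295 CPM, and only the 3 libraries high in Cpt2 passed 114 CPM among all 24. Hadha was lowest 149, median 177 and highest 203 CPM in WT, and 89.8, 133 and 200 CPM in WT-BAPN. Its KI libraries were at 110, 86.3, 157, 155 and 376 CPM, and KI-BAPN ran from 124 CPM through 155 to 274 CPM. The median of Hadha was lower in WT-BAPN than in WT, with overlapping libraries.

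Etfa and Etfb encode the subunits of the electron transfer flavoprotein. Etfa was lowest 92.2, median 109 and highest 119 CPM in WT, and 88.8, 98.7 and 134 CPM in WT-BAPN. The KI libraries were at 101, 113, 88.3, 94.5 and 265 CPM, and KI-BAPN ran from 95.01 CPM through 116 to 254 CPM. Outside the 3 libraries named above Etfa was the most even member, with a range of 1.52-fold. Etfb varied more: it was lowest 1.90, median 6.35 and highest 15.6 CPM in WT, 1.16, 3.20 and 10.5 CPM in WT-BAPN, and 2.49, 6.89 and 45.5 CPM in KI-BAPN. Its KI libraries were at 10.8, 8.95, 1.69, 2.54 and 16.3 CPM. Although both proteins form 1 complex, the range over 24 libraries was 39.2-fold for Etfb and 3.00-fold for Etfa. Etfb lies in Gm45233 on the same strand, so its counting is uncertain.

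**Figure D1:**
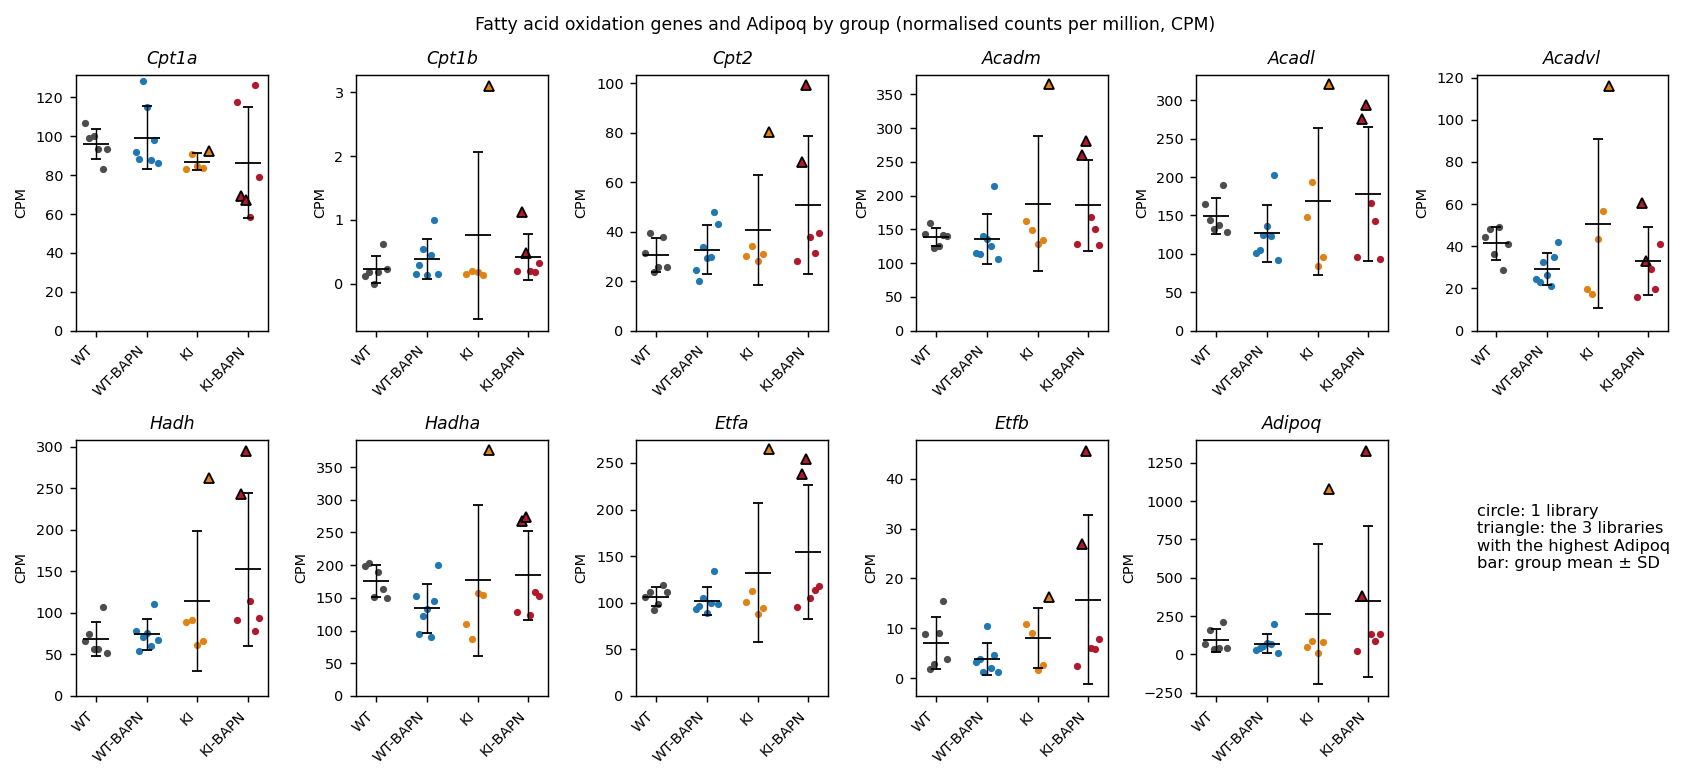
Level of each member and of Adipoq in CPM (vertical axes, linear) by group, with 1 point per library and bars for the group mean and SD. Triangles are KI replicate 5 and KI-BAPN replicates 2 and 3, the libraries highest in Adipoq. They lie above all 21 other libraries for 7 members and among the others for Cpt1a. The share of all genes with this order was not computed.

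Levels between genes were compared per kilobase of the length given in the deposited table, as the median over 24 libraries. Acadl (68.3 CPM per kb), Etfa (57.4) and Acadm (35.8) were highest, Hadha (17.4), Hadh (15.5), Cpt2 (13.1), Acadvl (12.7) and Cpt1a (11.9) were close together, and Etfb (4.45) and Cpt1b (0.0582) were lowest. With the longest coding transcript of GENCODE M21 in place of that length, Etfa (75.7 CPM per kb), Acadl (71.4) and Acadm (68.4) were close together, and Hadh (43.1) and Hadha (37.9) came before Cpt1a (21.2). Etfb and Cpt1b stayed lowest with either length. The order in the middle thus depended on the length used.

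None of the 10 genes passed the test in any comparison. In each of the 4 pairs of groups the libraries overlapped for every one of the 10. The share of all genes that overlapped in this way was not computed, so this sets the members apart from no other gene. In WT-BAPN against WT, 0 of 10 were called by edgeR at an adjusted p under 0.05, where 6.14% of all genes tested were called. The log2 differences ran from -0.88 (Etfb) to 0.77 (Cpt1b), with a median of -0.05 beside -0.04 for all genes. Acadvl had a log2 difference of -0.50 ± 0.35 (SE; edgeR adjusted p = 0.380, the lowest of the 10) and Hadha of -0.39 ± 0.28 (SE; edgeR adjusted p = 0.392). For Hadha the approximate 95% interval of the log2 difference, from its SE and a normal distribution, ran from -0.93 to 0.15. Of the 10, 0 had an unadjusted edgeR p under 0.05, beside 25% of all genes.

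In KI-BAPN against KI, 0 of 10 were called and 0.0352% of all genes. The median log2 difference was 0.07 beside -0.03 for all genes, and the lowest edgeR adjusted p was 0.591, for Acadvl at -0.61 ± 0.38 (SE). Again 0 had an unadjusted edgeR p under 0.05, beside 10.1% of all genes. In KI against WT on water, 0 of 10 were called and 0.19% of all genes. Of the members 9 had a log2 difference above 0, with a median of 0.30 beside -0.01 for all genes. The largest were Cpt1b at 1.71 ± 0.85 (SE; edgeR adjusted p = 0.308), Hadh at 0.73 ± 0.37 (SE; edgeR adjusted p = 0.317) and Acadm at 0.44 ± 0.26 (SE; edgeR adjusted p = 0.405). None had an unadjusted edgeR p under 0.05, beside 16.9% of all genes.

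In KI-BAPN against WT-BAPN, 0 of 10 were called and 0.00703% of all genes, which was Atad3a alone. Again 9 of 10 log2 differences were above 0, with a median of 0.47 beside -0.02 for all genes. Hadh was at 1.04 ± 0.34 (SE; edgeR adjusted p = 0.243), Etfb at 2.05 ± 0.69 (SE; edgeR adjusted p = 0.249), Cpt2 at 0.64 ± 0.29 (SE; edgeR adjusted p = 0.338) and Etfa at 0.59 ± 0.25 (SE; edgeR adjusted p = 0.297). These 4 had an unadjusted edgeR p under 0.05, as had 13.9% of all genes. For the difference between genotypes in the change under BAPN, 0 of 10 were called and 0% of all genes, while 14.8% of all genes had an unadjusted p under 0.05 and none of the 10 did. By other tools, DESeq2 called 24 genes and limma voom with quality weights 4 in this last test, none of them members.

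The differences between genotypes were also taken without the 3 libraries highest in Adipoq. All 3 are knock-in libraries and the highest of 24 for 7 members, so lower knock-in levels of these genes were built into that fit. Without KI replicate 5 and KI-BAPN replicates 2 and 3, the median log2 difference of the 10 genes was -0.17 in KI against WT and 0.07 in KI-BAPN against WT-BAPN. Hadh then had a log2 difference of 0.35 and Etfb of 0.54 on BAPN, and Cpt1b went from 1.71 to -0.38 on water. Other values moved away from 0: Hadha from 0.01 to -0.47 on water and Cpt1b from 0.11 to -0.77 on BAPN. With Adipoq as a covariate in all 24 libraries, the medians were 0.13 on water and 0.06 on BAPN, with Hadh at 0.37, Etfb at 0.56 and Cpt1b at -0.91 on BAPN. No member was called in either fit.

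**Figure D2:**
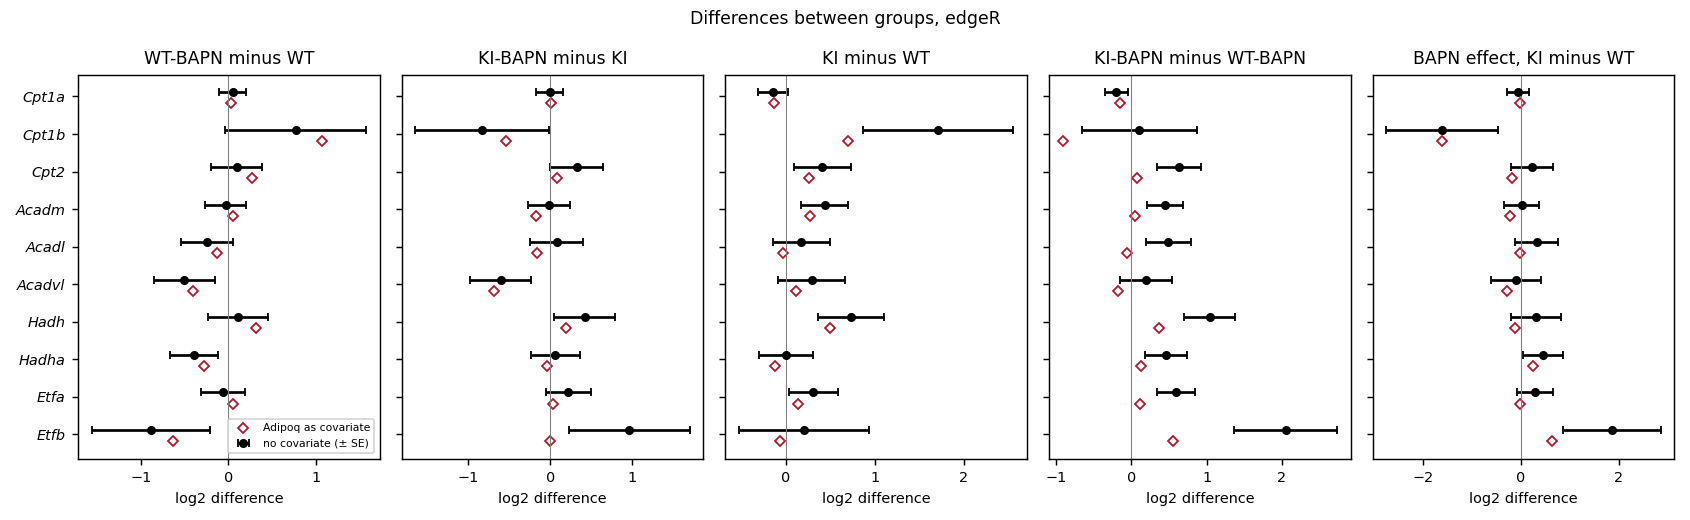
Log2 differences between groups (horizontal axes) for the 10 members in 5 comparisons. Black points with bars are edgeR estimates ± SE and open diamonds the estimates with Adipoq as a covariate. In KI-BAPN minus WT-BAPN the diamonds of Hadh (0.37) and Etfb (0.56) lie nearer to 0 than the points (1.04 and 2.05), while that of Cpt1b (-0.91) lies farther from 0 than its point (0.11).

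Adipoq itself was lowest 32.7, median 55.0 and highest 211 CPM in WT, and 10.2, 51.3 and 199 CPM in WT-BAPN. The KI libraries were at 47.0, 89.9, 11.1, 82.5 and 1077 CPM, and KI-BAPN ran from 23.5 CPM through 133 to 1324 CPM. KI-BAPN replicate 3 (1324 CPM), KI replicate 5 (1077 CPM) and KI-BAPN replicate 2 (382 CPM) were highest, and WT replicate 5 followed at 211 CPM. On the scale of the members' tests, the log2 difference of Adipoq by edgeR was 2.35 ± 0.92 (SE; edgeR adjusted p = 0.281) in KI-BAPN against WT-BAPN and 1.51 ± 0.98 (SE; edgeR adjusted p = 0.448) in KI against WT. Under BAPN it was -0.44 ± 0.89 (SE; edgeR adjusted p = 0.791) in WT and 0.41 ± 0.98 (SE; edgeR adjusted p = 0.903) in KI. The permutation test took another quantity, the difference in mean log2 CPM. Between KI-BAPN and WT-BAPN it was 1.73 (exact two-sided permutation p = 0.0862, adjusted over 4 comparisons 0.345). That in KI against WT was 0.25 (exact permutation p = 0.823), under BAPN in WT -0.53 (exact permutation p = 0.472) and under BAPN in KI 0.95 (exact permutation p = 0.489). Without KI-BAPN replicate 1 the first of these became 2.29 (exact permutation p = 0.0202), and without WT-BAPN replicate 6 it became 2.07 (exact permutation p = 0.0433), while without KI-BAPN replicate 3 it became 1.13 (exact permutation p = 0.187), all unadjusted. In KI against WT it turned to -0.67 without KI replicate 5 (exact permutation p = 0.438) and was 0.98 without KI replicate 3 (exact permutation p = 0.390). Under BAPN in KI it ran from 0.22 (without KI replicate 3) to 1.87 (without KI replicate 5), and in WT from -0.87 (without WT-BAPN replicate 6) to -0.15 (without WT-BAPN replicate 7).

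These 3 libraries were above every one of the other 21 for Cpt2, Acadm, Acadl, Hadh, Hadha, Etfa and Etfb. For Cpt1b and Acadvl 2 of the 3 were, and for Cpt1a none. The share of all genes for which the 3 libraries were highest was not computed. KI replicate 5 was the highest of 24 for 6 members. Its ratio to the median of the other KI libraries was 16.6 for Adipoq, 3.68 for Acadvl, 3.38 for Hadh, 2.85 for Hadha and 1.10 for Cpt1a. KI-BAPN replicate 3, with 10.1 times the Adipoq of its group, had 7.62 times the Etfb, 3.15 times the Hadh, 1.13 times the Acadvl and 0.849 times the Cpt1a. The 12 brown adipocyte markers summed to 1433 CPM in KI replicate 5, 1392 CPM in KI-BAPN replicate 2 and 1156 CPM in KI-BAPN replicate 3, and to 565 CPM at most in the other 21 libraries. Ucp1, the uncoupling protein of brown fat, was at 346, 197 and 112 CPM in these 3 and reached 176 CPM elsewhere. KI-BAPN replicate 3 also had 2465 CPM of summed macrophage markers and the lowest summed smooth muscle level of all, 11075 CPM. WT replicate 5, not among the 3, was close to it in both, at 2480 CPM and 13015 CPM. The part of these cells in the members' levels was not tested.

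Across the 24 libraries, r between log2 CPM of a member and of Adipoq was 0.86 for Acadm, Acadl and Etfa, 0.84 for Hadh, 0.81 for Cpt2 and 0.74 for Etfb. Each of these 6 had the smallest permutation p that 100000 permutations can give, 1e-05, and an adjusted p over 10 of 1.67e-05. Spearman's rho for Acadm, Acadl, Etfa, Hadh, Cpt2 and Etfb was 0.78, 0.77, 0.82, 0.71, 0.77 and 0.63. Without the 2 libraries farthest from the median of Adipoq, KI-BAPN replicate 3 and KI replicate 5, r for these 6 ran from 0.61 (Cpt2) to 0.76 (Acadl), and with group means subtracted from 0.70 (Etfb) to 0.86 (Acadm). Cpt1b had r = 0.68, rho = 0.55 and r = 0.57 without the 2 libraries (adjusted permutation p = 0.0006, 0.00791 and 0.00824).

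Hadha, Acadvl and Cpt1a stood apart. Hadha had r = 0.52 (adjusted permutation p = 0.0114) and rho = 0.33 (adjusted permutation p = 0.148), but r = 0.16 without the 2 libraries, so its relation rested on them. Acadvl had r = 0.36 (adjusted permutation p = 0.0921) and rho = 0.21. Cpt1a had r = -0.34 (adjusted permutation p = 0.106) and rho = -0.30. Within groups, r was above 0 for 8 of 10 members in WT, 8 in WT-BAPN and 9 in KI-BAPN, with medians of 0.71, 0.55 and 0.86. KI, with 5 libraries, was not taken, since r was computed only over 6 or more. Of these 30 values, 6 passed an exact permutation test adjusted over 30: Hadh in WT, Acadm and Acadl in WT-BAPN, and Cpt2, Etfa and Etfb in KI-BAPN. Within groups, r was not computed for all genes, so no background share stands beside these counts.

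**Figure D3:**
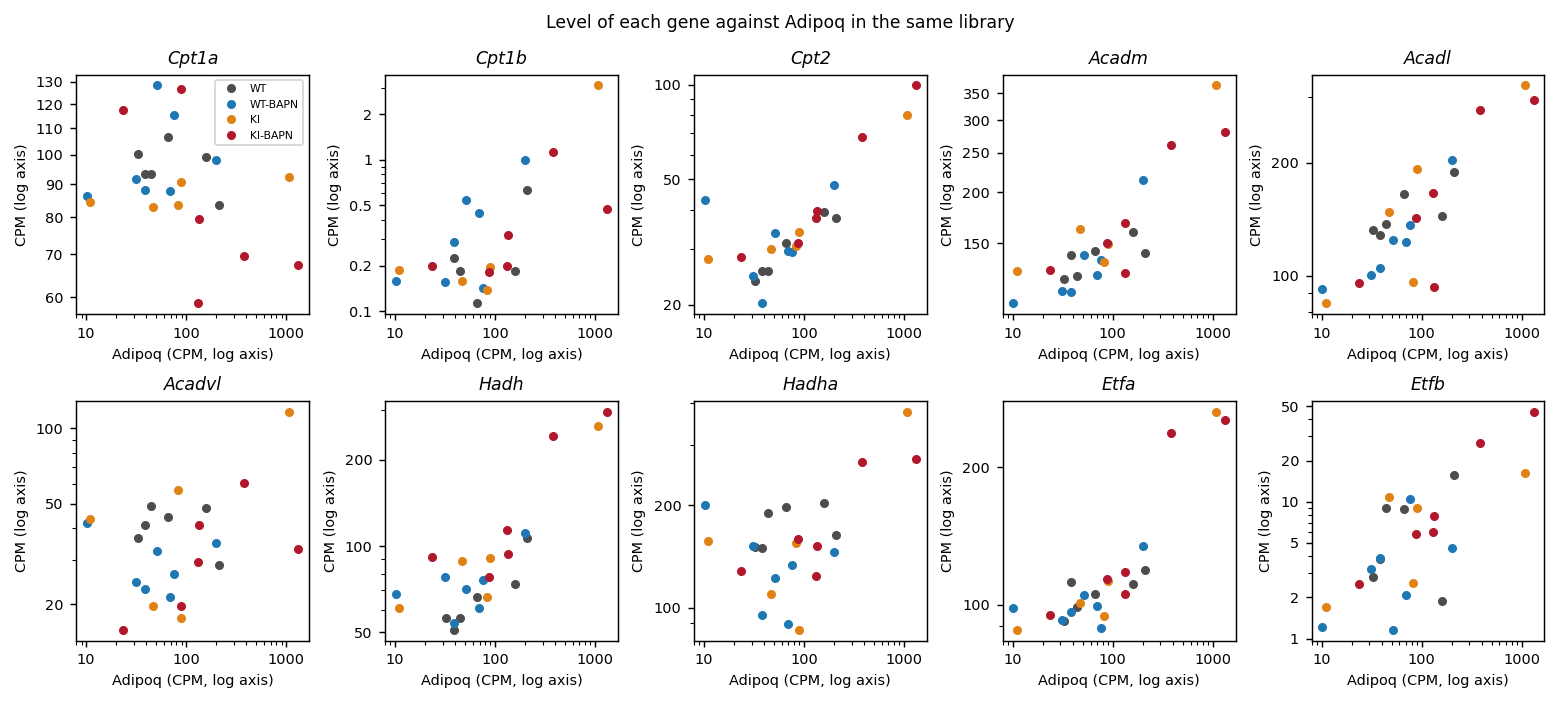
Level of each member (vertical axis, CPM, log scale) against Adipoq in the same library (horizontal axis, CPM, log scale), with 1 point per library colored by group. Cpt1b in WT replicate 3 is at 0 and not drawn. The points of Acadm, Acadl and Etfa rise with Adipoq (r = 0.86) and those of Cpt1a do not (r = -0.34).

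To set this against all genes, edgeR was fitted with log2 CPM of Adipoq beside the 4 group means. Of 14215 genes, 11.6% were called higher with Adipoq and 6.09% lower. Of the members 7 of 10 were called higher and 0 lower, with a median of 0.23 log2 per doubling of Adipoq beside -0.01 for all genes. Etfb and Cpt1b had the steepest coefficients, 0.57 ± 0.12 (SE; edgeR adjusted p = 0.00226) and 0.61 ± 0.11 (SE; edgeR adjusted p = 0.000476). Hadh was at 0.30 ± 0.039 (SE; edgeR adjusted p = 1.08e-05), Acadl at 0.28 ± 0.036 (SE; edgeR adjusted p = 1.01e-05), Cpt2 at 0.24 ± 0.040 (SE; edgeR adjusted p = 0.000295), and Acadm and Etfa at 0.22. For comparison, the 17 adipocyte markers tested beside Adipoq ran from 0.0099 to 1.03, with a median of 0.87. Among them Plin1, which coats lipid droplets, was at 0.99, above every member, but Pnpla2 was at 0.44, below Etfb and Cpt1b. Hadha (0.14; edgeR adjusted p = 0.0571), Acadvl (0.16; edgeR adjusted p = 0.102) and Cpt1a (-0.04; edgeR adjusted p = 0.453) were not called.

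Without the 3 libraries highest in Adipoq, 3 of 10 members were called higher, beside 7.32% of all 14239 genes, and 0 lower, beside 3.6%. They were Acadl at 0.23 (edgeR adjusted p = 0.0170), Acadm at 0.14 (edgeR adjusted p = 0.0311) and Hadh at 0.17 (edgeR adjusted p = 0.0339). Etfb kept a coefficient of 0.53, with a wider SE of 0.19 (edgeR adjusted p = 0.0741), and Etfa fell to 0.086 (edgeR adjusted p = 0.0620). Hadha went from 0.14 to -0.07 and Acadvl from 0.16 to -0.01. With any 1 library left out the 7 genes were called each time. Hadha was called as well without WT-BAPN replicate 5, WT-BAPN replicate 7 or KI replicate 2, and Acadvl without WT-BAPN replicate 7, the library lowest in Adipoq (10.2 CPM).

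**Figure D4:**
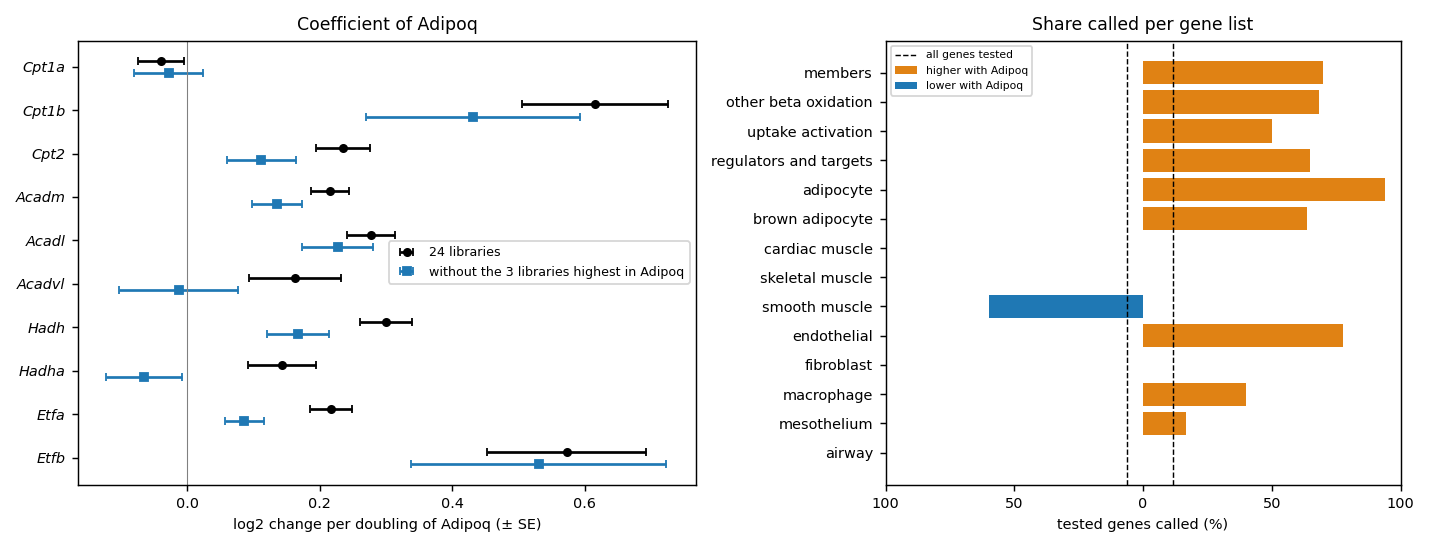
Left, log2 change per doubling of Adipoq with its SE (horizontal axis) for each member, in 24 libraries (circles) and without the 3 highest in Adipoq (squares). Right, share of the tested genes of each list called higher (right of 0) or lower (left of 0) with Adipoq in percent, with dashed lines at 11.6% and 6.09% for all genes.

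The other genes of the pathway were read in the same way. Of 22 other genes of fatty acid oxidation, 15 were called higher with Adipoq and 0 lower, with a median of 0.24, and 6 were called higher without the 3 libraries. Hadhb, the beta subunit of the trifunctional protein and thus the partner of Hadha, was called at 0.32 (edgeR adjusted p = 8.35e-05) while Hadha was not. Acaa2, the mitochondrial thiolase of the last step, was at 0.47 and Slc25a20, the carnitine carrier between Cpt1 and Cpt2, at 0.28. Of 12 genes of fatty acid uptake and activation 6 were called higher, led by the transporter Cd36 at 0.64, and of 20 regulators and targets 13, with Ppara, the nuclear receptor of the pathway, at 0.59 and its target Pdk4 at 0.49. Among markers, 16 of 17 adipocyte, 7 of 11 brown adipocyte and 7 of 9 endothelial genes were called higher, and 6 of 10 smooth muscle genes lower, among them Acta2 at -0.25. No cardiac (11 tested), skeletal (7), fibroblast (9) or airway (8) marker was called, and 4 of 10 macrophage and 1 of 6 mesothelial markers were called higher. Coefficients as large as those of the members were thus not limited to fat markers. The median was 0.99 for mesothelial, 0.61 for brown adipocyte, 0.42 for macrophage and cardiac, 0.39 for skeletal and 0.36 for endothelial markers. It was lower than in the members for fibroblast (0.098), airway (0.030) and smooth muscle markers (-0.19).

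Between groups, the other genes of fatty acid oxidation gave 2 calls among 22, both in WT-BAPN against WT, where 6.14% of all genes tested were called. Decr2, a peroxisomal reductase for unsaturated chains, rose by 0.73 ± 0.15 log2 (SE; edgeR adjusted p = 0.0144), and Acox3, a peroxisomal oxidase, rose by 0.59 ± 0.13 log2 (SE; edgeR adjusted p = 0.0183). Neither was among the 15 genes called with Adipoq. No gene of uptake and activation and no regulator was called in any of the 5 comparisons between groups.

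By likeness of log2 CPM over the 24 libraries, a description in which libraries share depth and tissue makeup, the genes nearest to the mean of 8 members (all but Cpt1a and Cpt1b) were Hadhb (r = 0.97), Sucla2 (0.97), Uck1 (0.97), Cs (0.96) and Ech1 (0.96). Adipoq had r = 0.87 with the same mean. These 5 were taken as the genes of highest r, so any other gene tested outside the members is lower by that choice. Among the nearest to Cpt1b were Pald1 (0.82), Alas1 (0.82), Scarf1 (0.81) and Acad12 (0.81). Nearest to Cpt1a were Lpin3 (0.75), Tet3 (0.73), Crybb3 (0.69), Hr (0.65) and Col4a1 (0.65), none of them a gene of the lists used here. For 2 members that were not called with Adipoq, near genes were looked up after their values were seen: among them were Atp5b (0.96) and Ptges2 (0.95) for Hadha, and Bckdha (0.89), Xpnpep3 (0.87) and Mrpl3 (0.86) for Acadvl.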

How the data were processed

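Polyadenylated RNA of 24 mouse aortas was sequenced. The authors deposited read counts per gene, not normalized, in 1 table. Its gene length column was used only for levels per kilobase. The submitters' processing notes name HISAT2, DESeq2, FastQC and Trim Galore, with the builds mm10 and GRCm38. The sources used here state no tool version, read counter or strand setting. The table's gene coordinates differ from those of GENCODE M21 (GRCm38) for all 10 members and are not printed. Each count column was assigned to its sample by the library code, and 0 columns were left over. Totals were 13127645 to 26490651 counts, and no 2 libraries were identical.

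From the counts, edgeR 4.0.16 in R 4.3.3 (TMM, filterByExpr by group, robust quasi-likelihood F tests) fitted 1 mean per group over all 24 libraries. Benjamini-Hochberg adjustment ran over 14216 genes, with calls at an adjusted p under 0.05. CPM uses TMM factors, and log2 CPM a prior count of 2. An SE is the log2 value divided by the root of its F statistic. The 95% interval took this SE with a normal distribution, so it is narrower than one from the F test. Permutation tests were two-sided. They were exact between groups (SciPy 1.17.1) and within groups. Over 24 libraries they used 100000 random permutations drawn with NumPy, shuffled within groups where group means were subtracted. Steps were tested on simulated data. Of 100 genes changed by 1 log2, 46 to 58 were called in the 4 pairs of groups and 23 in the interaction. Of 100 changed by 2 log2, 74 to 86 and 60 were. A real change of 1 log2 can thus go uncalled.

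The members and gene lists were chosen with earlier results of these data known. The Adipoq coefficient over all genes, the fits without the 3 libraries highest in Adipoq, the motifs and the printed promoters were chosen after seeing the data. Named are the members, Adipoq, Atad3a, up to 4 genes of lowest p and the called genes of a list, and the 5 genes most like Cpt1a, Cpt1b or the mean of the other 8. Some genes that this rule takes are left out of the text. Alternatives were RLE size factors, no filter, DESeq2 1.42.0 and voom in limma 3.58.1. Everywhere voom was run with quality weights, which weight each library. Further alternatives were only the groups compared, the replicate block, Adipoq or fat and muscle scores as covariates, and each library left out.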

Additional observations from a re-analysis of the deposited data

Results flagged for a closer look

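In 16 of 44 pairs of a gene and a group (10 members and Adipoq in 4 groups) the highest library lay far from the others of its group by Dixon's gap at the 95% level. Where values are normally distributed, chance flags about 1 in 20 groups, and this was not checked for these CPM values. The share of all genes flagged was not computed, so the count sets the members apart from no other gene. The pairs are not independent, since members moved together and the same libraries recur. KI replicate 5 accounted for 7 of the 16: Adipoq at 1077 CPM, Acadm at 365, Hadha at 376, Etfa at 265, Hadh at 262, Cpt2 at 80.3 and Cpt1b at 3.10 CPM. WT-BAPN replicate 6 accounted for 5: Adipoq at 199 CPM, Acadm at 214, Acadl at 203, Etfa at 134 and Hadh at 111 CPM. In KI-BAPN, Adipoq in replicate 3 (1324 CPM) and Cpt1b in replicate 2 (1.13 CPM) stood off. In WT it was Cpt1b in replicate 5 (0.629 CPM), and in WT-BAPN Etfb in replicate 4 (10.5 CPM). In all 4 groups the library highest in Adipoq was also the highest in the summed adipocyte markers, which include Adipoq.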

How the results depend on the processing

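In all 5 comparisons 0 of 10 members were called under every alternative run. Of 1636 member values, 125 had another sign than the reported one, none of them called. The lowest adjusted p was 0.0552 (Hadha, limma voom with quality weights, WT-BAPN against WT). Cpt1b did not pass the filter when only the groups compared were fitted. Counts over all genes moved far more, and the cause was not tested. WT-BAPN against WT gave 1510 genes by DESeq2, 4227 by voom with quality weights and 463 with fat and muscle scores (873 reported). BAPN in KI gave 302 by DESeq2, 112 with these scores, and 0 by voom, with no filter, with only the groups compared or without the 3 libraries highest in Adipoq (5 reported). KI on water gave 512 by DESeq2, 270 by voom, 7 with no filter, 8 with only the groups compared, 5 with the scores and 8 without the 3 libraries (27 reported). KI on BAPN gave 18 by DESeq2 and 3 by voom, and the interaction 24 and 4. With 1 library left out these counts ran from 327 (without WT replicate 1) to 1609 (without WT-BAPN replicate 7), from 0 to 143 (without KI replicate 4), and from 1 (without KI replicate 2) to 293 (without WT replicate 5), and were 1 throughout for KI on BAPN and 0 for the interaction. Genes called higher with Adipoq numbered 1042 and members 3 without the 3 libraries (1651 and 7 reported), and 1049 (without KI-BAPN replicate 3) to 1815 genes (without WT-BAPN replicate 7) and 7 to 9 members with 1 library left out. The r of Hadha fell to 0.161 without 2 libraries and 0.487 with group means subtracted. The Adipoq difference between KI-BAPN and WT-BAPN ran from 1.13 (without KI-BAPN replicate 3) to 2.29 (without KI-BAPN replicate 1).

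The replicate number as a block gave 1024, 0, 29, 1 and 0 genes in the 5 comparisons and 0 members. The labels do not state whether this number marks a shared batch, so the block tests no known pairing. For deviations from the group means, median r was 0.070 for same-numbered libraries and -0.0043 for other pairs across groups. Over the 33 same-numbered pairs r ran from -0.521 to 0.571, with 16 over 0.1. Of 24 libraries, 4 correlated best with their own number. Depth limits Cpt1b, at 0 to 71 reads.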
